A study of Arabidopsis thaliana and Lactuca sativa with 158 samples.

Results

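DDM1 and Pol V both take part in silencing transposable elements in Arabidopsis thaliana, though not necessarily the same ones. Here inflorescence RNA of ddm1 plants was set directly against that of polv plants. DDM1 is a chromatin remodelling protein that lets DNA methyltransferases reach heterochromatin, and plants without it lose methylation over long transposable elements. Pol V is a plant RNA polymerase whose untailed, noncoding transcripts act as scaffolds: ARGONAUTE proteins loaded with small RNAs, whose precursors come from Pol IV, pair with them and direct DNA methylation (RdDM) there.

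The comparison took in every library labelled as inflorescence (immature flower buds, stages 1 to 12) with genotype ddm1 (n = 3) or polv (n = 3), 6 of the 158 libraries of the series. All 6 came from the Columbia-0 ecotype and were labelled as carrying 35S::RUBY, a red pigment reporter; the labels used here name no allele and do not say whether replicates came from separate plants, so p-values measure the spread between these samples only. The poliv / polv double mutant (n = 1) and Col-0 (n = 3), from the same tissue, genetic background and reporter label, are given beside the comparison as values and entered no test of it. Long cDNA of probe-captured RNA was sequenced on nanopores. The tables hold 67 targets; the 6 construct targets were left out of the results, which leaves 61 in 5 classes named in the target labels. These are 20 methylated elements, 10 RdDM loci, 5 unmethylated elements, 11 sources of phased small RNAs and 15 protein-coding targets. DDM1, the gene for the largest Pol V subunit (NRPE1) and 10 genes chosen as markers of flower bud and leaf are not among the targets, so neither the genotypes nor the tissue could be checked in these tables.

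Values are normalised signal in reads collapsed by molecular identifier, so that copies of 1 molecule count once. In a library every value is a whole multiple of 1 step, the worth of 1 molecule, which was 0.781 to 1.65 in ddm1 and 0.354 to 1.16 in polv. By that step the tables hold 44989 to 92454 molecules per ddm1 library and 57355 to 150094 per polv library. A target that lies inside another, or overlaps it on the other strand, counts the same molecules again. Construct targets took 0.00973, 0.929 and 1.40% of the signal in the ddm1 libraries, against 40.0, 31.2 and 50.8% in the polv libraries. In Col-0 they took 0.00309, 63.1 and 0.00758%: Col-0 replicate 2 stands apart, with 21904 left for all other targets against 54937 and 61836, and it sets the low end of many Col-0 ranges. The signal left for all other targets summed to 72223 to 86019 in ddm1 and 31897 to 45789 in polv. A change in all targets together therefore cannot be told apart from this difference in make-up, and calls are given below with the deposited scaling and again after centring each library on the median of its protein-coding targets, which lowers every log2 change by 0.60.

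**Figure D1:**
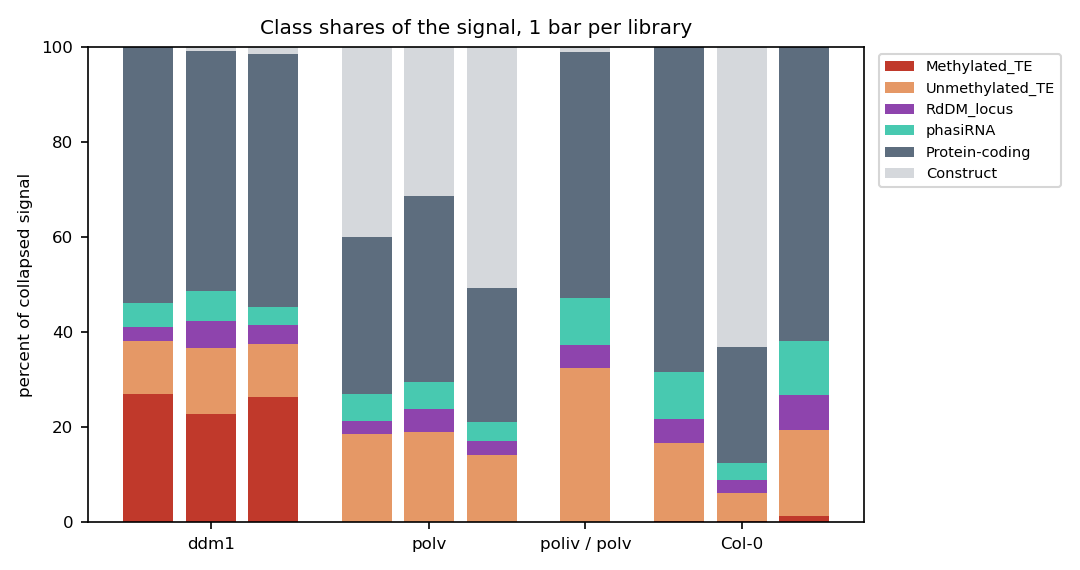
Share of the collapsed signal taken by each target class (percent, vertical axis), 1 bar per library, in ddm1, polv, poliv / polv and Col-0 inflorescences. Methylated elements take 22.9 to 27.0% in the 3 ddm1 libraries and 0.0200 to 0.0262% in the 3 polv libraries, where construct targets take 31.2 to 50.8%.

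RNA from methylated elements was abundant in ddm1 and near absent in polv. Of the 20 methylated element targets 18 could be tested and were called higher in ddm1 (limma on log2(signal + 1), Benjamini-Hochberg adjusted p below 0.05). Over all 65 targets tested, constructs included, 44.6% were called higher in ddm1 and 9.23% lower, and after centring 35.4% and 9.23%. To be tested a target had to be above 0 in at least 3 of the 6 libraries; 3 of the 18 were so in all 3 polv libraries, and the other 15 met this filter through ddm1, 8 of them with no polv molecule at all. The direction of those 8 was thus set by the filter, and the count and the median of the class are descriptions. The class summed to 19484, 17027 and 23044 in the ddm1 libraries, against 10.6, 17.4 and 13.7 in the polv libraries, and to 18.2 in poliv / polv and 189 to 811 in Col-0. Put as molecules, 49551 were counted in ddm1 and 59 in polv, although the polv libraries were read more deeply. The median fitted log2 change of the class was 8.48, against 1.19 over all 59 non-construct targets tested. The fitted changes of the 8 targets without a polv molecule depend on the pseudocount. With those 8 at the lower bound set by a floor of 3 molecules over the polv group (0.637 signal units), and the others at the ratio of pooled signal, the median log2 ratio was 9.93. RNA amount per cell and number of expressing cells cannot be told apart in whole buds.

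The chr4tes label covers 10 gene and element annotations whose identifiers place them on chromosome 4. AT4G07965 had 1247, 1269 and 3115 in ddm1 and was listed at 0 in all 3 polv libraries, which makes it at least 2694-fold higher in ddm1 on pooled molecules. Its ddm1 replicate 3 was the highest, and no polv library had a single molecule. Its direction was thus set by the filter, and its fitted log2 change of 10.73 depends on the pseudocount. AT4TE20065 (1163, 1177 and 2827 in ddm1) and AT4TE20070 (1141, 1143 and 2793 in ddm1) follow it library by library and were also at 0 in polv. They are the same transcripts seen from the other strand: the ratio of AT4TE20065 antisense to AT4G07965 sense signal marked pA was 1.003, 1.002 and 0.999 in the ddm1 libraries. So these 3 targets are not 3 separate observations.

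AT4G07967 had 1484, 1719 and 1529 in ddm1, against 0, 1.16 and 1.95 in polv, from 3 molecules in all. Its ratio of pooled signal was 2437, with a 95% exact counting interval of 833 to 11820. AT4TE20095 had 2764, 1332 and 854, against 1.06, 4.64 and 1.95 in polv, and in it ddm1 replicate 1 was the highest, the reverse of AT4G07965. AT4G07970 (222, 333 and 306), AT4TE20085 (144, 268 and 224) and AT4TE20080 (89.1, 204 and 149.6) had less signal in ddm1 than those above, and again no molecule in polv, at least 423-fold, 304-fold and 207-fold higher in ddm1. AT4TE20090 had the lowest signal of the tested methylated targets in ddm1, 8.59, 13.2 and 11.26 in ddm1 and 0 in polv, at least 16.3-fold. The remaining target, AT4TE20055, had no molecule in any of the 10 inflorescence libraries.

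The AT2TE02465 locus, on chromosome 2 by its identifiers, had 4 of 4 targets higher in ddm1 and fitted log2 changes of 7.75 to 10.52. AT2G02210 had 4063, 3389 and 4081 in ddm1, against 0, 3.48 and 2.93 in polv, and AT2G02205 had 3002, 2959 and 2799.8, against 3.19, 3.48 and 0.976. The ddm1 libraries lay close together in both, far above every polv library. AT2G02200 had 1395, 942 and 1569 in ddm1, against 3.54, 3.48 and 3.90 in polv, the highest polv level of the class at 17 molecules in all. AT2G02190 was the lowest of the locus, at 282, 228 and 304 in ddm1 and 0, 0 and 0.976 in polv.

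AtMu1 is a Mutator-like DNA transposon. Of its 4 targets 3 were tested and were higher in ddm1. AT4TE23195 had 380, 268 and 220 in ddm1 against 0.708, 0 and 0.976 in polv, AT4TE23190 had 286, 167 and 140.0 against 0 in all 3, and AT4TE23200 had 253, 113 and 117 against 0.708, 0 and 0. In each of them ddm1 replicate 1 was the highest library. The other target, AT4TE23185, was above 0 in too few libraries to be tested: it had 3.13, 0 and 9.65 in ddm1, 0 in polv and 2.55, 16.6 and 28.1 in Col-0. Of the loci with a single target, AT3G44215 had 1012, 756 and 642 in ddm1 and 0, 1.16 and 0 in polv, and AT5G17125 had 546, 748 and 1352 in ddm1 and 1.42, 0 and 0 in polv.

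**Figure D2:**
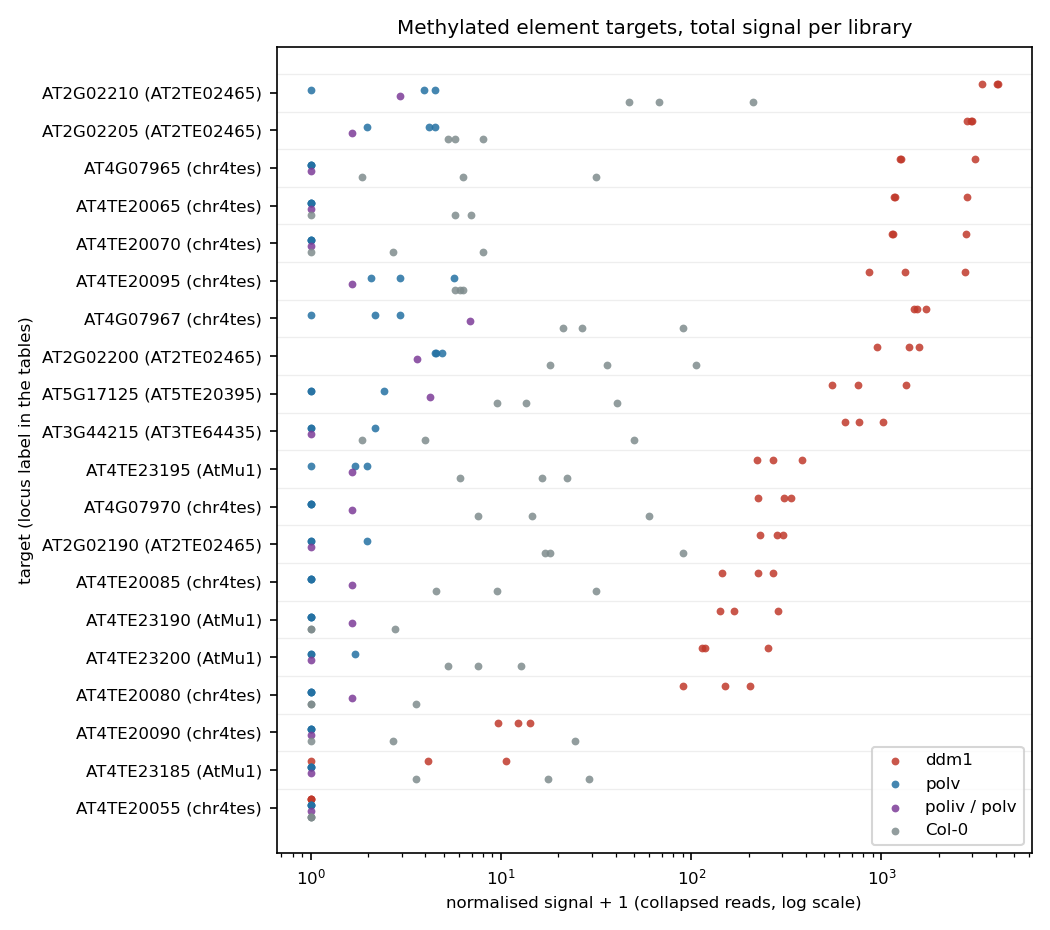
Total normalised signal plus 1 (horizontal axis, log scale) of the 20 methylated element targets, 1 point per library, ddm1 above polv, poliv / polv and Col-0 within each row. The ddm1 points of the 18 tested targets lie right of all polv points.

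ddm1 libraries held RNA of methylated elements in all 4 combinations of strand and pA mark. The tables split each target's signal by strand, relative to its annotation, and by reads marked pA or not. Of the targets tested, 8 of 15 had no polv molecule for sense signal marked pA, 8 of 17 for sense not marked, 16 of 16 for antisense marked and 16 of 17 for antisense not marked. These passed the filter through ddm1 alone, so for them a higher value in ddm1 was fixed in advance and is given with no weight. Among those with a molecule in polv, 7 of 7, 9 of 9, none to count and 1 of 1 were called higher in ddm1, with adjustment over the 4 columns together. In the same order, only 1 of 15, 2 of 17, 0 of 16 and 0 of 17 targets tested were above 0 in every polv library. The others met the filter through ddm1, which favours a higher value in ddm1, so these counts are descriptions too. Over all targets tested in each column the share called higher was 44.0, 43.3, 46.5 and 38.6%.

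Of the RNA from methylated elements, 55.8, 51.7 and 53.7% of the class signal in ddm1 was marked pA. In Col-0 it was 1.80, 5.88 and 4.62%, at a far lower level and from 908 molecules in all. In polv it was 16.7, 46.7 and 42.9%, resting on 59 molecules, too few for the share of any single target. For the protein-coding class the same share was 64.0 ± 2.4% in ddm1 and 59.1 ± 0.9% in polv (SD, n = 3 each); an exact two-sided permutation test gave p = 0.1, the smallest value 3 against 3 libraries can give. Among the 17 methylated targets with at least 10 molecules in every ddm1 library, the pA share ran from 28.6% in AT2G02210 to 79.1% in AT4TE20070, with a median of 51.5%. AT2G02205 held 61.3 ± 0.7% and AT4TE23190 67.4 ± 3.0% (SD, n = 3), while AT5G17125 had 37.1 ± 11.1%.

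Strand shares differed widely between targets. Of these, 3 of the 17 targets were mostly antisense in ddm1, AT4TE20065 (99.5 ± 0.3%), AT4TE20070 (98.8 ± 0.6%) and AT2G02190 (55.4 ± 9.7%), and the first pair carries the sense RNA of AT4G07965. AT3G44215 (0.965 ± 0.418%) and AT2G02205 (1.1 ± 0.7%) were almost wholly sense. The median over the 17 targets was 6.84% antisense.

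**Figure D3:**
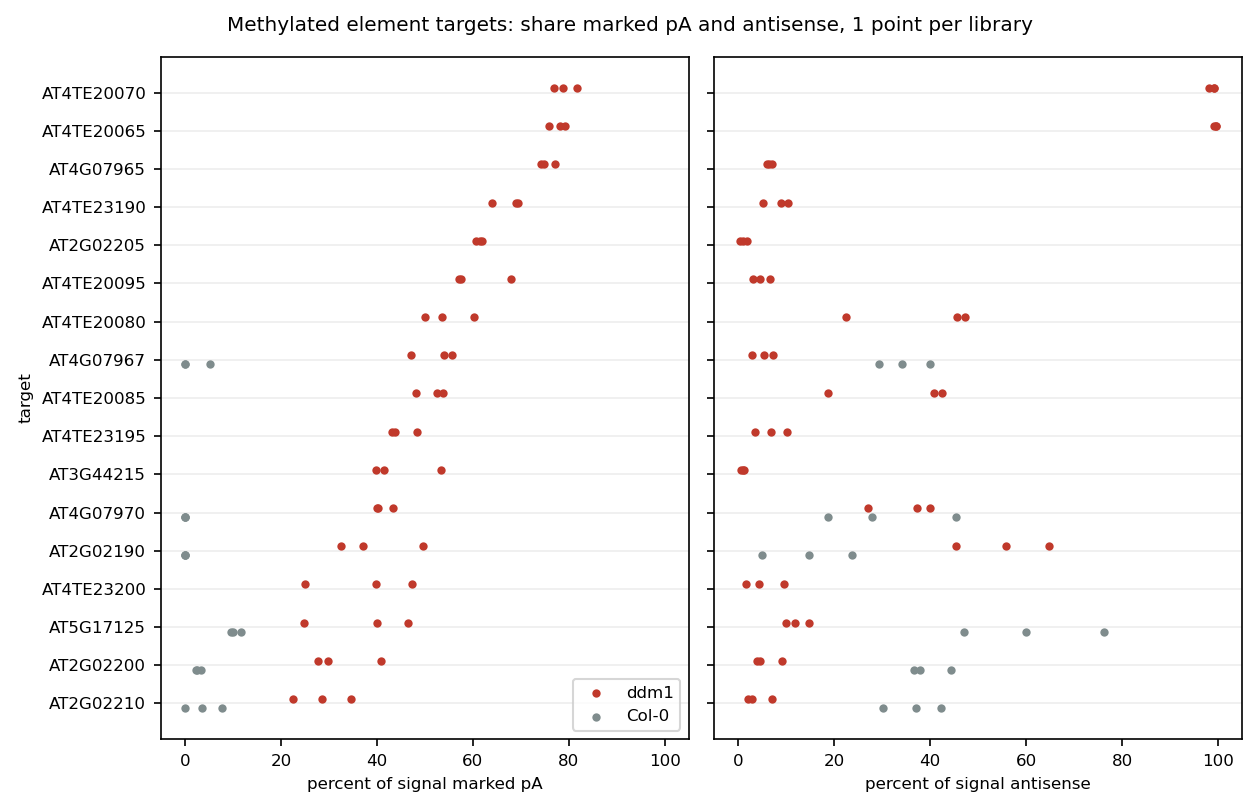
Percent of each methylated target's signal that was marked pA (left) and antisense (right), 1 point per library, for targets with at least 10 molecules in every library of the group. In ddm1 the pA shares run from 28.6 to 79.1% by target mean; where Col-0 has enough molecules its points lie at 11.8% or lower, and polv has too few molecules to be drawn.

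RdDM loci did not move as a class. Of 10 targets, all tested, 1 was higher in ddm1, none was lower and 9 did not pass, while 3 of the 10 had an unadjusted p below 0.05, and the class median was 0.69, or 0.09 after centring on the protein-coding targets. The class is mixed: it holds the IGN target AT1TE69285, 6 other element targets known by their identifiers, AT5TE85500, the trans-acting siRNA precursor TAS3 and AT1G62920. TAS3 had 959, 2745 and 1971 in ddm1 and 625, 1975 and 1072 in polv, with groups that overlap (log2 change 0.66, adjusted p = 0.31). AT1G62920 had 991, 955 and 933 in ddm1 and 599, 848 and 491 in polv, without overlap but short of the threshold (0.61, adjusted p = 0.074).

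IGN targets are intergenic noncoding loci known as Pol V transcription units. Total signal of AT1TE69285 was 38.3, 132 and 183 in ddm1 and 113, 127 and 129 in polv, a difference smaller than the spread of the ddm1 libraries (log2 change -0.32, SE 0.57, adjusted p = 0.63); without ddm1 replicate 1 the change was 0.35. The make-up of that RNA was not the same. Antisense RNA marked pA was 6.25, 3.31 and 22.5 in ddm1, against 75.4, 65.0 and 63.4 in polv, 124.8 in poliv / polv and 3.40, 1.18 and 2.34 in Col-0. Every polv library lay above every ddm1 library, and the fall in ddm1 relative to polv was 2.93 on the log2 scale, with SE 0.67 and an adjusted p of 0.0057. In this column 18.6% of the targets tested were lower in ddm1 and 46.5% higher.

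Sense RNA of AT1TE69285 without the pA mark ran the other way, at 8.59, 79.4 and 72.4 in ddm1, against 2.83, 4.64 and 12.7 in polv, 8.45 in poliv / polv and 16.1, 26.1 and 110.2 in Col-0. The lowest ddm1 library lay within the polv range, and the change missed the threshold (log2 change 2.53, SE 0.94, adjusted p = 0.063); without ddm1 replicate 1 it was 3.53 with an adjusted p of 0.0066. Antisense RNA without the pA mark was 23.4, 48.0 and 86.9 in ddm1 and 34.3, 53.4 and 52.7 in polv, which overlap. As a share, 11.1 ± 6.5% of the locus signal was marked pA in ddm1 and 56.8 ± 9.2% in polv, and 58.6 ± 19.4% was antisense in ddm1 and 93.7 ± 3.7% in polv (SD, n = 3 each).

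The tail balance, log2 of signal marked pA plus 1 minus log2 of signal not marked plus 1, was lower in ddm1 by 3.49 with SE 0.64 and an adjusted p of 0.017. Over all targets 6.15% were called lower in ddm1 for this balance. The strand balance, sense against antisense on the same scale, was 3.36 higher in ddm1 (adjusted p = 0.013), with 20.0% of targets called higher. Restricted to the 32 targets with at least 10 molecules in every library, the tail balance of AT1TE69285 stayed called (-3.49, SE 0.56, adjusted p = 2.4e-07). limma shares variance between targets, and in this restricted fit the tail balances of AT1G62920, RPF3 and AGL20 all had an SE of 0.40. Its tail p-values thus rest largely on the spread of other targets, not of the target's own 6 libraries. The strand balance of AT1TE69285 was not called in the restricted fit (adjusted p = 0.062), nor did it pass without ddm1 replicate 3 (adjusted p = 0.068). AT5TE85500, which by its identifier lies on chromosome 5, had nearly the same signal as AT1TE69285, at 0.888 to 1.015 of it over the 6 libraries, so reads of the pair may be shared and they are treated as 1 observation.

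AT3TE70480 was the 1 RdDM target called on total signal. It had 64.8, 104 and 106 in ddm1, against 7.79, 10.4 and 7.81 in polv, 15.0 in poliv / polv and 46.7, 43.8 and 103 in Col-0. The groups lay well apart (log2 change 3.24, SE 0.37, adjusted p = 0.00018; 2.63 after centring on the protein-coding targets). Both strands took part without the pA mark, sense at 32.0, 49.6 and 29.0 in ddm1 against 3.89, 6.97 and 2.93 in polv, and antisense at 24.2, 48.0 and 66.0 against 2.12, 1.16 and 2.93. Of its RNA in ddm1 10.1 ± 3.5% was marked pA. The identical pair AT4TE16650 and AT4TE16655, of which AT4TE16650 held more signal in the collapsed tables than in all reads in 7 of the 10 libraries, had 3.13, 19.9 and 29.0 in ddm1 and 7.79, 6.97 and 7.81 in polv, and AT3TE63860 had 3.13, 38.1 and 43.4 in ddm1 and 12.39, 4.64 and 6.83 in polv. In these the polv values lie within the ddm1 range, with ddm1 replicate 1 the lowest library. The other RdDM targets were near the counting limit: AT2TE47025 had 3.91, 3.31 and 3.22 in ddm1 and 1.77, 0 and 0.976 in polv, and AT4TE84225 had 1.56, 13.2 and 6.44 in ddm1 and 3.54, 2.32 and 0 in polv.

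**Figure D4:**
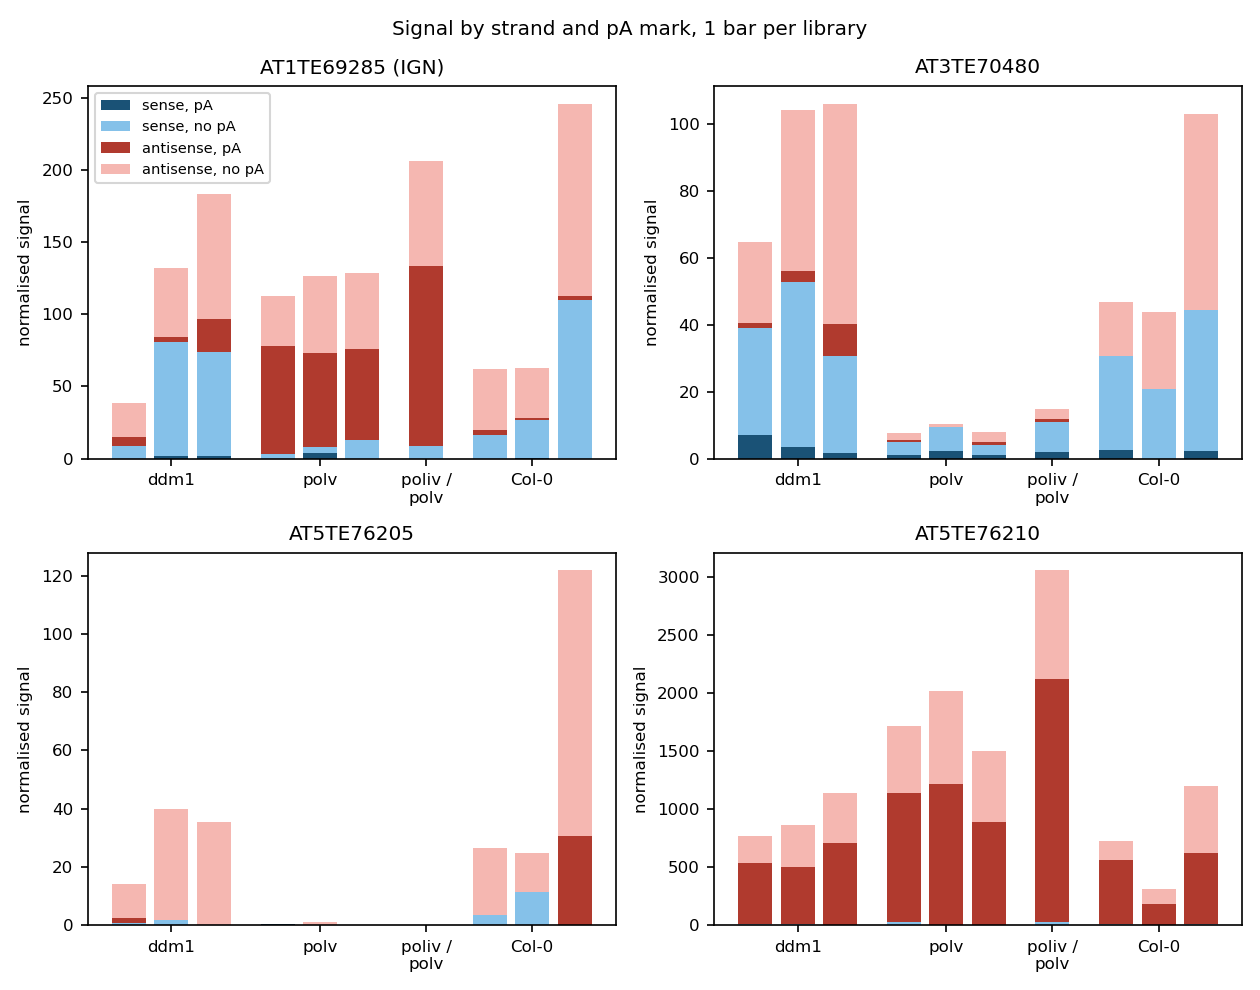
Normalised signal (vertical axis, from 0) split by strand and pA mark at 4 targets, 1 stacked bar per library, in the order ddm1, polv, poliv / polv and Col-0. Antisense signal marked pA is the largest part of the AT1TE69285 (IGN) signal in polv (63.4 to 75.4) and little of it in ddm1 (3.31 to 22.5), while AT3TE70480 and AT5TE76205 are near empty in polv.

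At the AT5G52070 locus neighbouring targets moved in opposite directions. The element AT5TE76205 had 14.1, 39.7 and 35.4 in ddm1, against 0.354, 1.16 and 0 in polv, from 2 molecules, and 0 in poliv / polv and 26.3, 24.9 and 122 in Col-0 (log2 change 4.30, SE 0.58, adjusted p = 0.00051). Its ratio of pooled signal was 60.2, with a counting interval of 16.0 to 508. In ddm1 this RNA was 96.8 ± 2.9% antisense, and 2 of the 3 libraries had no molecule marked pA. AT5TE76210 had 764, 864 and 1139 in ddm1, against 1718, 2020.2 and 1499 in polv, 3062 in poliv / polv and 725, 313 and 1198 in Col-0. No ddm1 library reached the polv range, and the target was lower in ddm1 (log2 change -0.93, SE 0.23, adjusted p = 0.012; -1.53 after centring on the protein-coding targets).

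AT5TE76215 moved with AT5TE76210 (772, 857 and 1107 in ddm1, against 1685, 1947 and 1477 in polv; log2 change -0.91, adjusted p = 0.011). Both read 99.5% antisense in ddm1 and in polv, and their pA shares were alike in the 2 genotypes: for AT5TE76210 62.8 ± 6.3% in ddm1 and 61.4 ± 3.0% in polv (SD, n = 3 each). The signal of AT5TE76210 antisense marked pA was 0.797 to 0.887 of the sense signal of AT5G52070 marked pA in the 6 libraries, and 0.969 to 1.000 of its antisense signal marked pA, so these targets may count the same molecules and are not taken as separate observations. AT5G52070 itself had 1814, 2464 and 3297 in ddm1 and 4045, 5463 and 4282 in polv (log2 change -0.89, adjusted p = 0.025). Its total includes antisense signal marked pA of 493 to 714 in ddm1 and 888 to 1216 in polv, while the tables of all reads, before collapse, list 0 to 171 and 0 to 1.95; its antisense columns are therefore not used. On sense signal alone it had 632, 619 and 832 marked pA in ddm1 against 1256, 1432 and 1028 in polv, again without overlap. With the deposited scaling that change missed the threshold (log2 change -0.83, adjusted p = 0.074), and after centring on the protein-coding targets it passed (-1.44, adjusted p = 0.0038). Over all alternatives its largest adjusted p was 0.24. Leaving out ddm1 replicate 1, ddm1 replicate 2, polv replicate 2 or polv replicate 3 moved the adjusted p of the AT5G52070 total to between 0.059 and 0.082, and with all 10 inflorescence libraries in the fit all 3 falls missed the threshold (adjusted p = 0.17).

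SADHU1-1 (AT2G10410), a retroposon of the unmethylated class, had 4706, 6116 and 4063 in ddm1 and 2365, 3274 and 1964 in polv, against 1631 to 5527 in Col-0. It was called higher in ddm1 with the deposited scaling (log2 change 0.98, adjusted p = 0.017) and not after centring on the protein-coding targets (0.38, adjusted p = 0.28). Leaving out ddm1 replicate 2 or polv replicate 3 also ended the call (adjusted p = 0.075 and 0.059). The 5 unmethylated element targets are therefore not 5 separate observations, and with either rescaling 1 was higher, 3 were lower and SADHU1-1 was not called.

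**Figure D5:**
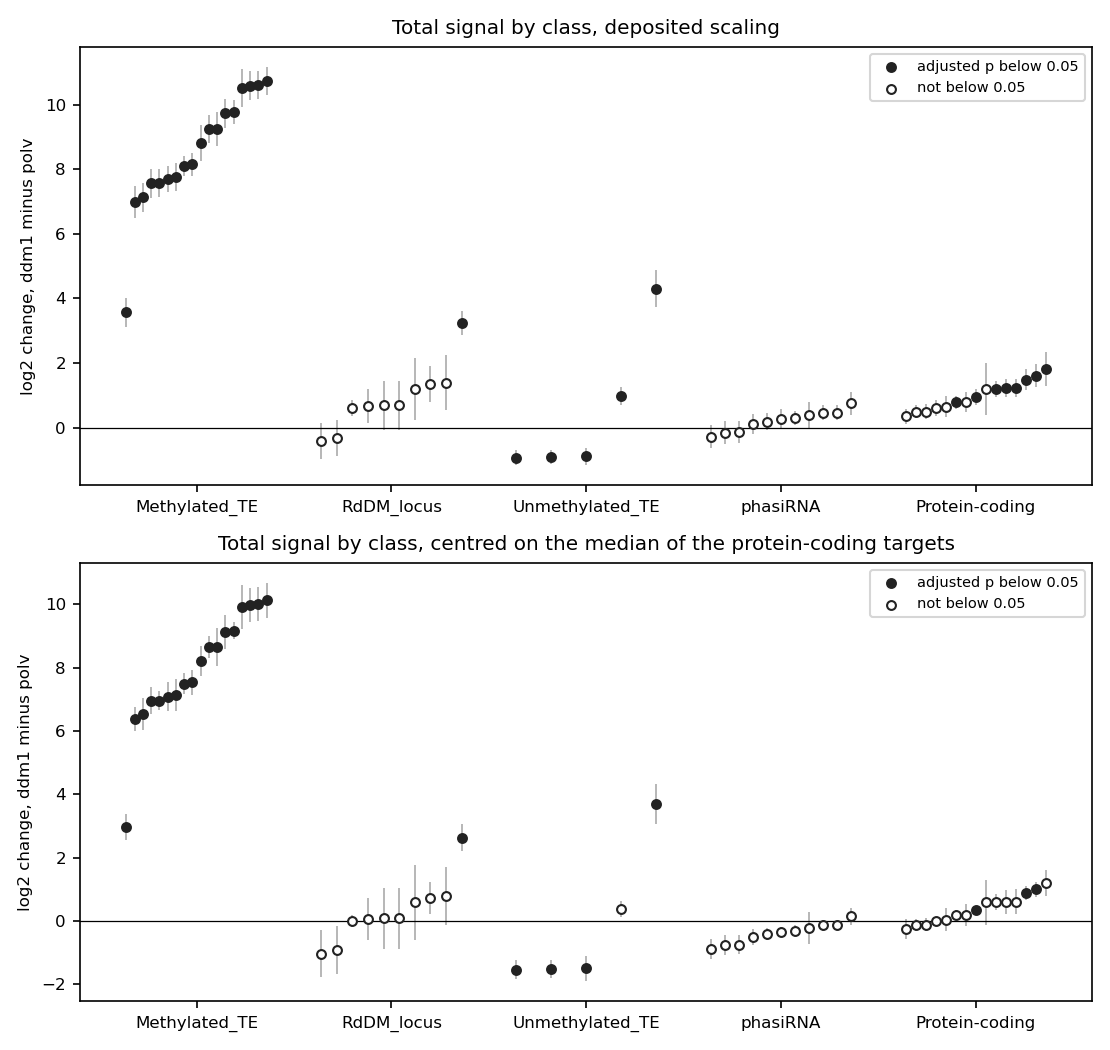
Log2 change of total signal, ddm1 minus polv, for the 59 non-construct targets tested (points, bars ± 1 SE), by class, with the deposited scaling above and after centring on the median of the protein-coding targets below; filled points passed an adjusted p of 0.05. Methylated elements stay between 2.97 and 10.13 after centring, while 23 of the 29 higher calls and all 3 lower calls over the classes hold.

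All 15 protein-coding targets had a positive log2 change with the deposited scaling (median 0.95), and 8 of them were called higher in ddm1, against 44.6% of all targets tested. After centring, 3 of those calls held (AGO6, ALY1 and UBP1B), and when libraries were instead scaled to equal sums outside the construct and methylated classes these 3 missed the threshold (adjusted p = 0.057, 0.062 and 0.41) while AGO1, MT1A and AT1G07590 kept theirs (log2 change 0.53, 0.55 and 0.54; adjusted p = 0.021, 0.020 and 0.020). Of 6 genes listed for the RdDM machinery 2 are targets, and both were called with the deposited scaling, under which 44.6% of all targets were: AGO6, an ARGONAUTE that binds siRNAs of this pathway, had 124, 111 and 113 in ddm1 and 46.7, 51.1 and 28.3 in polv (log2 change 1.48, adjusted p = 0.0073; 0.88 and 0.022 after centring). AGO4, its close relative, had 1441, 1521 and 1290.5 in ddm1 and 806, 956 and 719 in polv (0.78, adjusted p = 0.012), but 0.18 and an adjusted p of 0.44 after centring. AGO6 sense RNA without the pA mark was 93.8, 72.8 and 72.4 in ddm1 and 24.1, 27.9 and 20.5 in polv.

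Of 9 genes listed for transgene and trans-acting siRNA silencing 4 are targets and 1 was called higher with the deposited scaling, against 44.6% of all targets tested. AGO1, the main ARGONAUTE of the microRNA pathway, had 2867, 2897 and 2821 in ddm1 and 1050.1, 1762 and 1045 in polv (log2 change 1.20, adjusted p = 0.0067; 0.60 and 0.11 after centring). The RNA-dependent RNA polymerase gene RDR6 had 175, 346 and 163 in ddm1 and 133, 144 and 133 in polv (0.65, adjusted p = 0.14). DCL4, which encodes a Dicer, had 274, 352 and 417 in ddm1 and 262, 299.5 and 249 in polv (0.35, adjusted p = 0.25), and the value turned to -0.25 after centring. The helicase gene SDE3 had 315, 362 and 356 in ddm1 and 145, 309 and 175 in polv (0.79, adjusted p = 0.074). Without polv replicate 2, its highest polv library, SDE3 passed (adjusted p = 0.0065).

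Antisense signal was called for SDE3, AGO4 and AGO6, each call being lost under some alternative, and for none of RDR6, DCL4 and AGO1 where it could be tested. SDE3 antisense signal marked pA was 134, 76.1 and 191 in ddm1, against 29.7, 54.6 and 20.5 in polv, 103 in poliv / polv and 86.7, 7.11 and 63.3 in Col-0 (log2 change 1.92, adjusted p = 0.017). Its sense signal marked pA was 92.2, 114 and 62.8 in ddm1 and 51.0, 85.9 and 56.6 in polv, so the antisense signal was the larger in 2 of the 3 ddm1 libraries and in no polv library. The antisense call was lost after centring (adjusted p = 0.11) and without ddm1 replicate 1, ddm1 replicate 3, polv replicate 1 or polv replicate 3 (adjusted p = 0.052 to 0.077). AGO4 antisense signal marked pA was 44.5, 34.7 and 19.3 in ddm1 and 4.96, 9.29 and 1.95 in polv (log2 change 2.50, adjusted p = 0.0079), but in the tables of all reads the change was 0.47 with an adjusted p of 0.72. For AGO6 the same column was 0 in all 3 ddm1 libraries and 3.19, 2.32 and 0.976 in polv, a handful of molecules; it met the filter through polv alone, which fixes its direction, and the call was lost with a pseudocount of 10 (adjusted p = 0.089).

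Outside the small RNA pathways, ALY1, related to the Drosophila gene always early, had 259, 205 and 211 in ddm1 and 95.6, 92.9 and 43.9 in polv (log2 change 1.60, adjusted p = 0.0081; 1.00 and 0.022 after centring). Its antisense columns are not used either, because 9 of 10 libraries had more collapsed than uncollapsed signal in the one marked pA; its sense signal marked pA was 79.7, 66.2 and 66.0 in ddm1 and 23.0, 12.8 and 6.83 in polv (2.38, adjusted p = 0.00015). The element AT5TE35515, labelled with the same gene, was 97.8 ± 2.0% antisense in ddm1 (SD, n = 3), and its antisense signal marked pA was 0.946 to 1.000 of that ALY1 column, so it is not a separate observation. It had 84.4, 39.7 and 53.1 in ddm1 and 24.1, 18.6 and 7.81 in polv (1.81, adjusted p = 0.019), and lost its call after centring and without ddm1 replicate 1, ddm1 replicate 3 or polv replicate 3. UBP1B, an RNA-binding protein gene, had 1939, 1456 and 1390.2 in ddm1 and 932, 896 and 656 in polv (0.95, adjusted p = 0.012; 0.34 and 0.036 after centring).

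The metallothionein gene MT1A (AT1G07600) and AT1G07590 overlap, at a ratio of 0.960 to 0.973, and count as 1 observation: MT1A had 11336, 11297 and 15688 in ddm1 and 4138, 7421 and 5182 in polv (1.22, adjusted p = 0.0083), and was not called after centring (0.62, adjusted p = 0.27). The flowering gene AGL20 had 932, 920.0 and 912 in ddm1 and 601, 864 and 541 in polv (0.49, adjusted p = 0.11), AXS2 had 6713, 5730.4 and 6441 in ddm1 and 4616, 5153 and 3827 in polv (0.48, adjusted p = 0.077) and SUR1 had 691, 541 and 459 in ddm1 and 398, 402 and 306 in polv (0.60, adjusted p = 0.074). None of these 3 passed, although with the deposited scaling their groups did not overlap. That was so for 13 of the 15 protein-coding, 18 of 18 methylated, 3 of 10 RdDM, 5 of 5 unmethylated and 1 of 11 phased small RNA targets tested. After centring on the protein-coding targets AGL20 was at -0.11 (adjusted p = 0.71), AXS2 at -0.12 (adjusted p = 0.69) and SUR1 showed no change. AT5TE35520 was near the counting limit, with 3.13, 4.96 and 0 in ddm1 and 1.06, 0 and 0 in polv.

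Sources of phased small RNAs, mostly genes for pentatricopeptide repeat and disease resistance proteins, were the class with no call on total signal. None of the 11 targets passed, none had an unadjusted p below 0.05, and the class median was 0.26 (-0.35 after centring). The targets with the highest mean were AT1G63130, with 984, 1081 and 790.1 in ddm1 and 710.0, 822 and 548 in polv, RPF3, with 867, 1033 and 636 in ddm1 and 714, 875 and 625 in polv, and AT2G39870, with 376, 942 and 713 in ddm1 and 374, 655 and 460 in polv. The groups overlap in all 3. Over the class the log2 changes ran from -0.28 at the disease resistance gene AT5G43740 to 0.75 at EMB175, and the groups did not overlap in 1 of the 11, AT1G63080, with 430.5, 457 and 386 in ddm1 and 302, 377 and 254 in polv (0.46, adjusted p = 0.13). In the other classes they did not overlap in 18 of 18 methylated, 13 of 15 protein-coding, 3 of 10 RdDM and 5 of 5 unmethylated targets tested, all with the deposited scaling. With the deposited scaling, strand and tail columns passed at 2 targets, 1 for antisense and 1 for sense signal marked pA. In these columns 46.5 and 44.0% of all targets tested were called higher. After centring, sense signal marked pA was called higher at 1 and lower at 2 of the 11 sources, against 17 higher and 5 lower of all 50 tested. Antisense signal marked pA was then called at none of the 2 sources tested. AT2G39870 antisense signal marked pA was 3.13, 3.31 and 1.61 in ddm1 and 0, 1.16 and 0 in polv, a few molecules (log2 change 1.47, adjusted p = 0.042). This column met the filter through ddm1, which favours a higher value there. The other was EMB175, a pentatricopeptide repeat gene, whose sense signal marked pA was 46.9, 33.1 and 33.8 in ddm1 and 16.6, 9.29 and 9.76 in polv (log2 change 1.62, adjusted p = 0.0019; 0.083 with the equal-sum scaling). For the tail balance over all targets, none of the 11 phased small RNA sources and none of the 15 protein-coding targets passed (limma; 2 of each at an unadjusted p below 0.05). A test restricted to targets with at least 10 molecules in every library, added after seeing the data, called it at AT5G43730, where 23.4 ± 5.1% of the signal was marked pA in ddm1 and 45.9 ± 8.8% in polv (log2 difference -1.47, adjusted p = 0.0099, against 0.064 over all targets), and at AXS2, with 46.5 ± 5.9% in ddm1 and 36.7 ± 4.5% in polv (0.59, adjusted p = 0.0079, against 0.19, SD, n = 3 each). As at AT1TE69285, these restricted p-values rest largely on the spread of other targets.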

How the data were processed

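Total RNA (TRIzol) received a 3' adapter, was copied by template switching, captured with probes and read by nanopore, per the labels' protocols. The submitters' processing notes name the build TAIR10 and cutadapt; aligner, counter and the normalising total are not given in the sources used here. The deposited values are normalised signal per target, all reads and full-length reads, with and without collapse by molecular identifier. All 5229 values above 0 in the strand and tail columns were whole multiples of 1 step per library (tolerance 1e-06 steps), the same step in all tables of a library, so collapsed values are still scaled by reads before collapse; collapsed reads per 100 reads were 6.23 to 7.23 in ddm1 and 4.73 to 6.13 in polv.

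Collapsed tables were tested with limma 3.58.1 (R 4.3.3) on log2(signal + 1), with the 6 libraries in 1 fit, variance trend, targets above 0 in at least 3 libraries and Benjamini-Hochberg adjustment over all targets tested (over the 4 columns together). Shares in percent were computed from the deposited signal; intervals cover counting error only. Exact tests and figures used Python 3.11.15, scipy 1.17.1 and matplotlib 3.10.9. All 35 gene identifiers matched the RefSeq gene table, used for names only. Every called target may be named, as may all members of the gene lists and, in a class with no call, the 3 highest means. Members and lists were chosen with earlier results of these data known. The labels that read 35S::RUBY have no RUBY target in these tables. Alternatives were other pseudocounts (0.5 and 10), filters, tables, scalings, a replicate block, leaving out libraries and, added after seeing the data, an equal-sum scaling, a minimum of 10 molecules and voom weights. The 2 targets AT4TE16650 and AT4TE16655 had identical collapsed values. No 2 libraries were identical.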

Additional observations from a re-analysis of the deposited data

Results flagged for a closer look

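The poliv / polv library entered no test and is given here where it exceeded all 3 Col-0 libraries at targets that the comparison of ddm1 with polv called lower in ddm1; it exceeded them at some other targets too, among them ALY1 (214.5, against at most 188.6) and DCL4 (447, against at most 419.7). At the AT5G52070 locus its total signal was 7319 for AT5G52070 (Col-0 1181 to 3851), 3062 for AT5TE76210 (Col-0 313 to 1198) and 3008 for AT5TE76215 (Col-0 303 to 1116). Antisense signal marked pA there was 2100 for AT5TE76210 and 2098 for AT5TE76215, against 616.5 for each in the highest Col-0 library. The antisense columns of AT5G52070 are not used, though its total includes them, and these targets may count the same molecules. At AT1TE69285 (IGN) and AT5TE85500 the antisense signal marked pA was 124.8 each, against 1.18 to 3.40 in Col-0. It is 1 library, so these values have no replicate.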

How the results depend on the processing

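With the deposited scaling 32 of 59 targets differed in total signal, 29 higher and 3 lower in ddm1; leaving out 1 library at a time gave 29 to 36, with 27 to 34 higher and 2 to 3 lower. Full-length reads not collapsed gave 21 (19 higher), and all 10 inflorescence libraries in 1 fit left 0 lower (limma; the 3 falls then had adjusted p-values of 0.168 to 0.171). Of the methylated calls, 17 of 18 held in every setting in which they could be tested, and AT4TE20090 missed once (1.27, adjusted p = 0.0501). Of the 18, 15 met the filter through ddm1, which favours a higher value in ddm1, so this count is a description. The filter set the direction of the 8 targets without a polv molecule, and for them the count carries no weight. Strand and tail columns gave 59 calls in collapsed full-length reads, against 98. Tail balance gave 4 calls with at least 10 molecules in every library, against 8, and 5 to 11 without 1 library; strand balance gave 0 (3 at an unadjusted p below 0.05), and 10 in all reads, against 16, and 12 to 18 without 1 library.

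The median change of methylated elements was 9.12 with a pseudocount of 0.5, 6.29 with 10, 11.36 in all reads, 7.88 after protein-coding centring and 8.07 with equal sums. Those last 2 scalings gave -1.50 and -1.56 for unmethylated elements, -0.35 and -0.41 for phased small RNA sources and 0.34 and 0.28 for protein-coding targets.

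Centring on the median of all non-construct targets, which methylated elements themselves move, shifted every change by 2.30 and called 51 targets, 19 higher and 32 lower. It turned AT1G07590 (-1.09), MT1A (AT1G07600, -1.08), UBP1B (AT1G17370, -1.35), AGO1 (AT1G48410, -1.10), SADHU1-1 (AT2G10410, -1.32), AGO4 (AT2G27040, -1.52), AGO6 (AT2G32940, -0.82), ALY1 (AT5G27610, -0.70), AT5TE35515 (-0.49), DCL4 (AT5G20320, -1.95), RDR6 (AT3G49500, -1.65), SDE3 (AT1G05460, -1.51), AGL20 (AT2G45660, -1.81) and TAS3 (AT3G17185, -1.64), and likewise EMB175 (AT5G03800) sense marked pA (-0.68), AGO6 sense not marked (-0.62) and SDE3 antisense marked pA (-0.38). DCL4 was -0.25 and AGL20 -0.11 after protein-coding centring; equal sums gave DCL4 -0.32, AGL20 -0.18, RDR6 -0.0182 and TAS3 -0.0131. RDR6 was -0.60 in collapsed and -1.53 in uncollapsed full-length reads. AT1TE69285 ran from -0.77 to 0.35 without 1 library, and AT5TE85500 from -0.89 to 0.22, both positive only without ddm1 replicate 1. Except where a scaling's own construction sets it, the cause was not tested.

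Between libraries of the same replicate number the correlations of deviations were -0.07, -0.02 and 0.20. Some shares did follow the number. Of AGO4 signal, 22.5, 3.16 and 4.36% was full-length in ddm1, 18.7, 5.10 and 8.41% in polv and 18.6, 6.77 and 4.60% in Col-0. The pA share of the phased small RNA class was 38.1, 31.0 and 26.6% in ddm1, 35.2, 31.05 and 29.25% in polv and 36.0, 28.5 and 23.45% in Col-0. In the RdDM class replicate 1 was also the highest in each of these genotypes. In the protein-coding class of polv it was not (59.2, 60.0 and 58.2%). Whether the numbers pair the libraries is thus not settled, and the tail balances and pA shares above are given without a replicate block. With the replicate block 36 targets differed in total signal, 32 of them shared with the fit without it. The added ones were SDE3, AT1G63130, SUR1 and TAS3 (0.66, adjusted p = 0.020). Sense signal of AT1TE69285 not marked pA and of AT5G52070 marked pA also passed with the block (limma, adjusted p = 0.025 and 0.028). Targets near 1 molecule per library are limited by depth.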

Other observations

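Full-length reads varied between methylated targets in ddm1. The collapsed full-length tables held 97.9 ± 0.7% of the signal of AT4TE20065, 94.6 ± 2.9% of AT4TE23190 and 92.3 ± 2.9% of AT2G02205, but 0.666 ± 0.191% of AT5G17125 and 2.62 ± 0.94% of AT4G07965 (SD, n = 3). AT4TE20065 and AT4G07965 count the same transcripts, so this share depends on the annotation of the target. It does not tell intact from broken RNA between targets. At AT5TE63505, in the class of phased small RNA sources, the share was 81.6 ± 9.3% in ddm1 and 62.2 ± 2.8% in polv (SD, n = 3 each), a difference that was not tested.

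Every methylated target with any signal had a higher mean in Col-0 than in polv. The class summed to 189 to 811 in Col-0 and 10.6 to 17.4 in polv, and examples follow. AT2G02210 had 0, 3.48 and 2.93 in polv and 45.9, 66.9 and 211 in Col-0, of which 3.8 ± 3.9% was marked pA (SD, n = 3). AT4G07970 had 0 in all 3 polv libraries and 13.6, 6.52 and 58.6 in Col-0, with no molecule marked pA. In AT4TE23185, at 0 in polv, the ddm1 libraries had 3.13, 0 and 9.65 and the Col-0 libraries 2.55, 16.6 and 28.1. These values were seen in the data and were not tested.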
